A study of Rattus norvegicus with 16 samples.

Results

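Sustained volume overload of the left ventricle (LV) was examined as 1 comparison of all arrays made following an aortocaval fistula (ACF), a surgical shunt between the abdominal aorta and the inferior vena cava, with the arrays of control rats. The 12 ACF arrays, 4 each at 8, 16 and 24 weeks, were chosen by their titles and set against the 4 arrays titled baseline, which together are the 16 of 16 arrays of the series. All arrays hold LV RNA of adult male Sprague-Dawley rats, and the groups share no other treatment. The sample titles and the protocol place the controls at baseline, whereas the design text and the study compare with sham rats, and neither the age nor the surgery of these 4 rats is given per sample. Age, surgery and time in the animal house therefore cannot be told apart from ACF in a comparison with control. The descriptions of the 4 arrays of the 24-week group read 24, 25, 26 and 27 weeks. The 3 times were given equal weight, and the question was which genes differed from control in a like manner at all of them.

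Under volume overload the ventricle dilates and thickens, and the tissue between the myocytes is rebuilt by fibroblasts, which lay down collagen and elastic fibres, and by macrophages, which take up debris and secrete proteases and complement. The adult myocyte draws most of its energy from fatty acids, and the genes of fatty acid oxidation are known to fall in overloaded hearts. The values are log2 intensities with each array centred on its own median, so that 0 is the median probe set of an array and a difference of 1 is a doubling. Each gene was read from 1 probe set, chosen for its highest mean intensity on the 16 arrays.

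Of 14218 genes, 668 passed (4.7%). Of these, 451 were higher after ACF, or 3.17% of the genes tested, and 217 were lower, or 1.53%. A gene passed at an adjusted p under 0.05 (limma, Benjamini-Hochberg over all genes). An unadjusted limma p under 0.05 was seen in 2923 genes (20.6%). A like change was defined as 3 differences from control of 1 sign, with the smallest at least 0.5 times the largest on the log2 scale. Of the genes that passed, 396 met this definition (2.79% of the genes tested), 253 of them higher (1.78%) and 143 lower (1.01%). The median difference of the 253 was 0.51, 0.68 and 0.55 in time order, and that of the 143 was -0.42, -0.58 and -0.48. The difference was largest at 16 weeks in 314 of the 396, at 24 weeks in 64 and at 8 weeks in 18. Rises reached further than falls. A fold change of 2 or more was seen in 54 of the 253 and 5 of the 143. All 12 ACF arrays lay above all 4 control arrays for 107 of the like genes that were higher (0.753% of the genes tested) and below them for 66 of those that were lower (0.464%). Over all genes, whether or not they passed, the shares were 1.13% above and 0.844% below. Whatever the p, the difference from control was positive for 7088 of the 14218 genes and negative for 7130.

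The 3 times were also compared with each other in the same fit. In limma's moderated F test among the times, 0 genes passed and 1200 had an unadjusted p under 0.05, or 8.44% of the genes tested. Of the 396 like genes 39 had such a p, and of the 272 genes that passed without a like change 216 had. Since the definition uses the same differences, these shares describe the definition. Set against control one at a time, in comparisons that share the 4 control arrays, 7 genes were higher and 1 was lower at 8 weeks (0.0492% and 0.00703% of the genes tested), 829 and 463 at 16 weeks (5.83% and 3.26%), and 87 and 42 at 24 weeks (0.612% and 0.295%). At an unadjusted p under 0.05 the counts in either direction were 1112 (7.82%), 3459 (24.3%) and 2306 (16.2%).

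The medians of the deposited arrays stood at 2 levels, between 6.13 and 6.17 on 9 arrays and between 5.92 and 5.96 on 7, and all 4 controls were at the higher level, with 3 of 4 arrays at 8 weeks, 2 of 4 at 16 weeks and 0 of 4 at 24 weeks. Without centring, the median difference of all genes was -0.13, and 200 genes were higher and 1036 lower, so that 16.2% of the calls were higher, against 67.5% with centring. With the level as a block, 467 genes were higher and 234 lower, of which 292 and 120 were among those above. The counts also rest on the 4 controls. Without control replicate 1, 102 genes were higher and 46 lower, without replicate 2, 116 and 47, and without replicate 3, 157 and 79. The count rose to 722 higher without replicate 4 at 24 weeks and to 327 lower without replicate 4 at 16 weeks. Without the 16-week arrays, 121 were higher and 54 lower. The ventricular label was checked against marker genes. Of 16 measured markers of ventricular cardiomyocytes 0 passed by limma, with 2 at an unadjusted p under 0.05 (20.6% over all genes). Their summed linear level ranged from 2862 to 3054 in controls and from 2378 to 3088 after ACF. That of 4 measured atrial markers ranged from 8.66 to 107 and from 10.2 to 183. In bulk tissue, more cells of a type and more RNA per cell cannot be told apart. The labels do not say that the 4 arrays of a group came from separate rats beyond giving n = 4 per group, and the p values measure the spread between arrays.

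The 14 rises and 14 falls described first are those with the largest difference among like genes whose 12 ACF arrays all lay outside the control range. They had an exact two-sided permutation p of 0.0011 each, the smallest that the 1820 splits of 12 against 4 arrays allow, and were chosen for that separation. No detection calls were used, so whether control levels below the median probe set, such as those of Dnah7, Tgfa and Ptgs2, were above background is not known, and their folds are folds of intensity. Dnah7, a heavy chain of the dynein that bends motile cilia, had the largest difference of the 14. Its levels in the controls were -0.83, -2.16, -0.43 and -2.37, and those of the 12 ACF arrays ran from 0.20 over a median of 1.71 to 3.19. The 2 groups did not overlap, and the difference was 3.22 ± 0.42 (SE), 9.31-fold (adjusted p = 0.000973), with 2.79 at 8 weeks, 3.18 at 16 weeks and 3.68 at 24 weeks. It passed with any 1 array left out, and its level in every control array was below that of the median probe set.

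**Figure D1:**
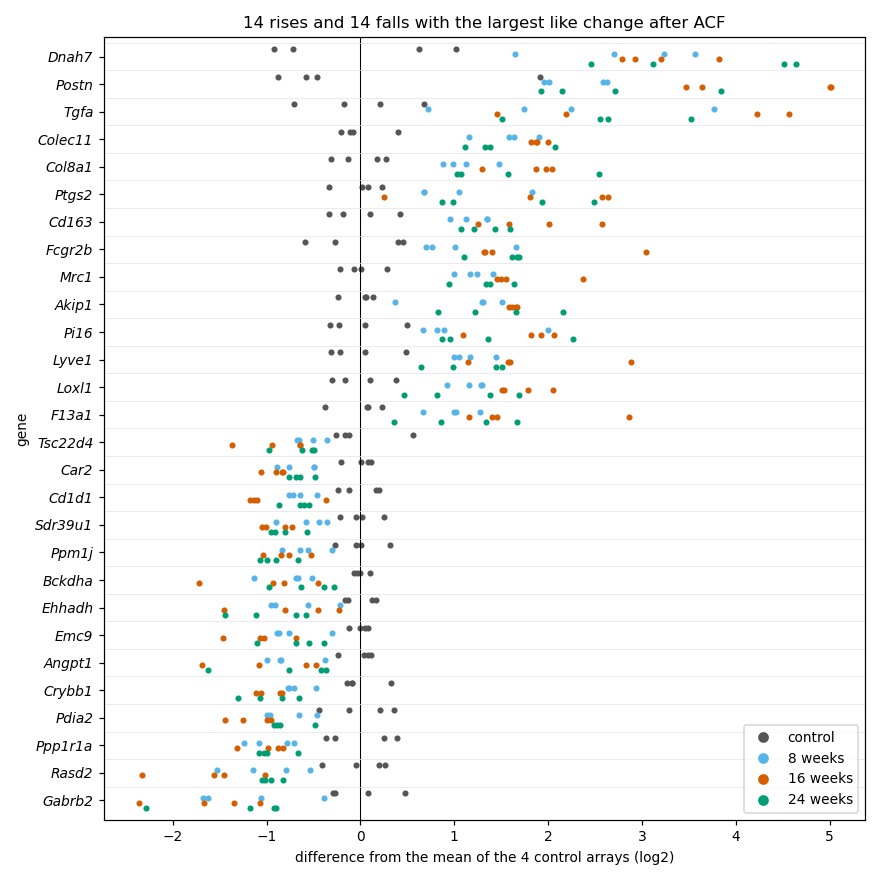
Level of each of 28 genes on every array as a difference from the mean of the 4 controls (log2, horizontal axis), with 1 row per gene and 1 point per array coloured by group. All 12 ACF arrays lie to the right of the controls for the 14 rises (Dnah7 to F13a1) and to the left for the 14 falls (Tsc22d4 to Gabrb2).

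Other rises among the 14 belong to signalling. Tgfa encodes a ligand of the epidermal growth factor receptor. Its controls stood at -1.39, -1.92, -1.003 and -0.54 and its ACF arrays between -0.49 and 3.35 with a median of 1.19, so the lowest ACF array lay just above the highest control. The difference was 2.59 ± 0.54 (SE), or 6.04-fold (adjusted p = 0.0132), and it did not pass without control replicate 1 (adjusted p = 0.0638) or 2 (adjusted p = 0.0659). A second Tgfa probe set differed by 1.84 with an adjusted p of 0.0721. Ptgs2, the inducible cyclooxygenase of prostaglandin synthesis, was below the median probe set on every array, with controls between -3.21 and -2.65 and ACF arrays between -2.63 and -0.24. Its rise of 1.48 ± 0.36 (SE, adjusted p = 0.029) did not pass without control replicate 1, 2, 3 or 4, with an adjusted p of up to 0.107. Akip1, a binding partner of protein kinase A, rose from 3.76, 4.06, 4.06 and 4.13 in the controls to between 4.38 and 6.16 after ACF, by 1.40 ± 0.20 (SE, adjusted p = 0.00132). Of its 8 probe sets, 4 differed by 1.40, 1.47, 1.497 and 1.64, and the other 4, all below the median probe set, by -0.17 to 0.03.

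Matricellular proteins and matrix proteoglycans, which fibroblasts secrete into a strained matrix, leaned higher. Of 23 measured, 10 passed, all of them higher, and 5 had a like change, against 3.17% and 1.78% of all genes. Their median difference was 0.60, against -7e-04 over all genes. Postn (periostin), a marker of activated fibroblasts, stood at -0.30, -0.71, -0.41 and 2.07 in the controls and between 2.09 and 5.17 after ACF, with a median of 2.84. The fourth control lay 2.54 above the mean of the other 3 and just below the lowest ACF array. The rise was 3.08 ± 0.44 (SE), 8.45-fold, with 2.29 at 8 weeks, 4.28 at 16 weeks and 2.66 at 24 weeks (adjusted p = 0.00143), and without that control it was 3.71. Ccn2 (connective tissue growth factor), with controls at 3.67, 3.97, 3.56 and 4.43, rose to between 4.36 and 6.81, by 1.82 ± 0.31 (SE), and 11 of 12 ACF arrays lay above the controls. Thbs4 (thrombospondin 4) rose by 2.31 ± 0.49 (SE), with 1.67, 2.94 and 2.31 at the 3 times. Its call was lost without control replicate 1, 2 or 3, with an adjusted p of up to 0.0683. Ccn3 and Aspn (asporin) were the other like genes, at 0.72 and 0.60. Vcan (versican, 1.10), Dcn (decorin, 0.34), Tnc (1.27), Ccn5 (1.71) and Fn1 (0.93) passed without a like change, while 13 did not pass, among them Spp1 (osteopontin, 1.39), Bgn (0.63) and Sparc (0.02). Without control replicate 1, 2 or 3 the count of the list fell to 2, with Postn and Ccn2 alone passing each time, and with the array level as a block it was 7. With that block Ccn3, Aspn, Dcn and Fn1 did not pass (adjusted p = 0.0715, 0.0826, 0.0714 and 0.0709), and Spp1 did (2.14, adjusted p = 0.0208).

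Collagen chains moved less. Of 28 genes of collagen chains and collagen modification, 5 passed, all of them higher (3.17% over all genes), with a median of 0.21. The 2 with a like change were Col8a1, a short-chain collagen, and Col14a1, a collagen that associates with fibrils. Col8a1 rose from 0.77, 0.95, 1.26 and 1.35 to between 1.96 and 3.62, by 1.49 ± 0.22 (SE, adjusted p = 0.00167). Col14a1 rose from 3.10, 3.19, 3.11 and 3.67 to between 3.85 and 4.91, by 1.01 ± 0.15 (SE, adjusted p = 0.00196), and a second probe set rose by 0.83. The groups did not overlap for either gene, and both kept their call under every alternative run. The fibrillar chains Col1a2 (0.57) and Col3a1 (0.42) passed with a difference that was smallest at 24 weeks, at 0.30 and 0.24, and Col1a1 (0.50) did not pass. Col12a1 also passed, at 1.03, without a like change. The list's count was 2 when control replicate 1, 2 or 3 was left out, with Col1a2, Col3a1 and Col12a1 lost (adjusted p of up to 0.135, 0.111 and 0.111).

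Elastic fibres give the ventricle recoil and are built of elastin, which lysyl oxidases cross-link, on a scaffold of fibrillin microfibrils. Of 21 measured genes of their assembly, 8 passed, all of them higher (3.17% over all genes). A like change was met by 6 (1.78% over all genes), and the median of the list was 0.39. The scaffold gene Fbn1 (fibrillin 1) stood at 2.34, 2.40, 2.27 and 2.97 in the controls and ran from 2.93 to 4.40 after ACF with a median of 3.82, so that 11 of 12 ACF arrays lay above the highest control. It rose by 1.29 ± 0.17 (SE), 2.45-fold (adjusted p = 0.000973), and a second probe set rose by 1.22. Mfap5, a glycoprotein of microfibrils, rose from 3.68, 3.602, 3.64 and 4.18 to between 4.29 and 5.59, by 1.02 ± 0.16 (SE). The cross-linking enzyme Loxl1, with controls at 2.04, 2.18, 2.44 and 2.72, ran from 2.81 over 3.68 to 4.39 after ACF. Its groups did not overlap, and the rise was 1.32 ± 0.18 (SE), 2.50-fold (adjusted p = 0.00108), with 1.16, 1.72 and 1.09 at the 3 times. Fbln2 (fibulin 2, 1.00), Ltbp2 (1.08) and Emilin2 (0.39) were the other like genes, and Emilin1 (0.65) passed without a like change. Emilin1 lost its call without control replicate 1, 2 or 3 (adjusted p of up to 0.0901), and Emilin2 without 10 of the 16 single arrays (0.157) and under a block for array level (0.191). Lox, the related cross-linking enzyme, rose by 1.26 ± 0.22 (SE) but not in a like manner, with 1.29, 2.00 and 0.50. Eln (elastin) itself differed by 0.33 and did not pass (adjusted p = 0.0898), nor did Fbln5 (0.08) or Fbn2 (-0.10).

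Of 14 measured elastin-degrading proteases and their inhibitors, 6 passed, all of them higher (3.17% over all genes), with a median of 0.52. They were 4 cathepsins and 2 inhibitors. Ctss (cathepsin S) rose from 2.73, 2.52, 2.83 and 2.91 to between 3.05 and 4.22, by 0.89 ± 0.12 (SE, adjusted p = 0.00117), and Ctsk (cathepsin K) from 0.79, 0.67, 0.60 and 1.09 to between 1.17 and 1.94, by 0.64 ± 0.11 (SE, adjusted p = 0.0041). Timp2, an inhibitor of metalloproteinases, rose from 4.81, 4.68, 4.61 and 4.79 to between 4.98 and 5.65, by 0.54 ± 0.08 (SE, adjusted p = 0.00222). The groups of these 3 genes did not overlap, and they were the like genes of the list. A second Timp2 probe set differed by 0.38 and did not pass (adjusted p = 0.137). Ctsb (0.51), Ctsl (0.60) and Timp1 (1.83) passed without a like change, the last 2 not without control replicate 2 (adjusted p = 0.0502 and 0.0518). With a block for array level Timp1 stood at 2.72. The 5 metalloproteinases measured, Mmp2 (0.49), Mmp7 (-0.19), Mmp9 (0.13), Mmp12 (0.65) and Mmp14 (0.58), did not pass, though Mmp14 did under a block for array level (0.90, adjusted p = 0.0339).

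**Figure D2:**
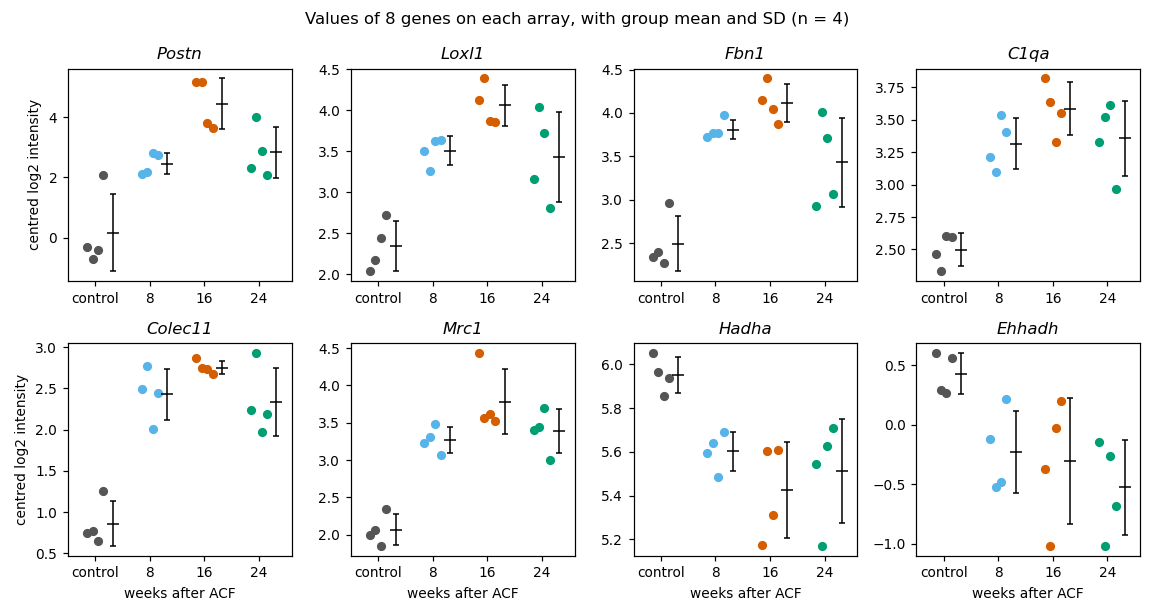
Centred log2 intensity (vertical axis) of 8 genes on the 4 arrays of each group, with the group mean and SD beside the points. Postn, Loxl1, Fbn1, C1qa, Colec11 and Mrc1 are higher at all 3 times and Hadha and Ehhadh are lower, and the fourth control array stands at 2.07 for Postn.

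Complement is a cascade of plasma proteins that starts when C1q or a collectin binds a surface. With C1q, the proteases C1r and C1s cleave the next component. Of 20 measured complement genes, 9 passed, and all 9 were higher with a like change, against 1.78% of all genes. Colec11 (collectin 11), a starter of the lectin pathway, had the smallest adjusted p of all 14 named rises. Its controls stood at 0.75, 0.77, 0.65 and 1.26 and its ACF arrays between 1.97 and 2.93 with a median of 2.58, so the gap between the groups exceeded the range of the controls. It rose by 1.65 ± 0.15 (SE), 3.13-fold (adjusted p = 7.69e-05), with 1.57, 1.89 and 1.47 at the 3 times. The 3 chains of C1q rose together. C1qa rose from 2.46, 2.33, 2.60 and 2.59 to between 2.96 and 3.82, by 0.92 ± 0.12 (SE, adjusted p = 0.000894). C1qb rose from 2.10, 1.88, 1.67 and 2.05 to between 2.34 and 3.78, by 0.95 ± 0.17 (SE, adjusted p = 0.00439). C1qc rose from 2.35, 1.97, 2.25 and 2.10 to between 2.62 and 3.76, by 0.91 ± 0.15 (SE, adjusted p = 0.00357). None of the 3 overlapped the controls, and each passed with any 1 array left out. Serping1 (0.75), the inhibitor of C1, the proteases C1s (0.56) and C1r (0.48), the central component C3 (1.28) and the receptor C5ar1 (0.65) were the other members. The median of the list was 0.41, and without control replicate 1 or 2 its count was 4. The calls of Serping1 and C5ar1 were lost without either of these (adjusted p of up to 0.0679 and 0.0608), those of C1s, C3 and C1r also without control replicate 3 (up to 0.0897, 0.147 and 0.16), that of C3 also without replicate 3 at 24 weeks, and that of C1r also without replicate 3 or 4 at 8 weeks or 2 or 3 at 24 weeks.

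The 3 C1q genes lie side by side on chromosome 5 of GRCr8, between 154402276 and 154419933, with 0 other genes of the RefSeq table between them. The 300 bases around the gene start (250 before and 50 after) are printed for C1qa and C1qb, as neighbours that moved together, and for Mrc1 and Postn, as the macrophage and matrix genes described here, from RefSeq with build GRCr8. Capitals mark GAGGAA on either strand, the core bound by ETS factors, PU.1 of macrophages among them. C1qa lies at chr5:154419884-154420183 and C1qb at chr5:154407778-154408077 on the minus strand, and Mrc1 at chr17:82157475-82157774 and Postn at chr2:140677811-140678110 on the plus strand.
C1qa: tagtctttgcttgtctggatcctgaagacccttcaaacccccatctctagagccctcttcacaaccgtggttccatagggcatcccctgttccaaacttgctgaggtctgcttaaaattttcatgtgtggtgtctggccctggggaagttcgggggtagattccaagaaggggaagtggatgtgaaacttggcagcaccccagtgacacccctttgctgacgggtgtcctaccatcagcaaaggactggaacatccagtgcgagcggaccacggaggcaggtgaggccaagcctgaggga
C1qb: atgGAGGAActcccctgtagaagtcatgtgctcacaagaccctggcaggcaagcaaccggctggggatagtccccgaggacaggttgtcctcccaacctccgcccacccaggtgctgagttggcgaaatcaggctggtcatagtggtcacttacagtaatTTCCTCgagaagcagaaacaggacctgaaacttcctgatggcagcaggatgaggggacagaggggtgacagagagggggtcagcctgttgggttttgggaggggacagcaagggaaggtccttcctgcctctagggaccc
Mrc1: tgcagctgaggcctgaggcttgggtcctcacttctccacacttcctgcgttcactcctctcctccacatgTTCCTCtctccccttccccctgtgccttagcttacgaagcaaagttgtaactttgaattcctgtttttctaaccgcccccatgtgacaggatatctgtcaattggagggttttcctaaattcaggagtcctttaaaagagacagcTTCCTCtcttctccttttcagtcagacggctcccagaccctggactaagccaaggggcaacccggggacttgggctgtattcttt
Postn: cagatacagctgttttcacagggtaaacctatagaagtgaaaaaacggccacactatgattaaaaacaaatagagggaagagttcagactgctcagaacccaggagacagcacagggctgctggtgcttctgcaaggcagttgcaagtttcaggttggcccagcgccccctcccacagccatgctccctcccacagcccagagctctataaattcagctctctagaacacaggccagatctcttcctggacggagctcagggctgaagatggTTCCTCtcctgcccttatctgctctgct
The letters GAGGAA occur 0 times in the C1qa window, 2 times in those of C1qb and Mrc1 and 1 time in that of Postn. They occur in 27.5% of the 27457 promoters of the table and in 26.8% of the 11734 that belong to genes tested here. Of the like genes with a promoter in the table, 77 of 204 that were higher (37.7%) and 26 of 114 that were lower (22.8%) hold them. The half-site AGGTCA of nuclear receptors is held by 12.7% of the promoters of genes tested, 12.7% of those higher and 18.4% of those lower. The TEAD site GGAATG is held by 11.7%, 13.7% and 13.2%, and the TATA box TATAAA by 8.46%, 6.37% and 14% in the same order. Both strands were searched, GAGGAA and GGAATG share the letters GGAA, and a match is a description of the sequence and not a bound site.

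Markers of macrophages had the highest median of the lists, 0.79, and 16 of 16 measured were positive, against 7088 of 14218 over all genes. Of the 16 markers, 10 passed, all of them higher, and 8 had a like change, against 3.17% and 1.78% of all genes. Mrc1, the mannose receptor of tissue macrophages, stood at 2.00, 2.07, 1.85 and 2.35 in the controls and between 3.00 and 4.44 after ACF with a median of 3.46. It rose by 1.42 ± 0.15 (SE), 2.67-fold (adjusted p = 0.000345), with 1.21, 1.72 and 1.33 at the 3 times. Cd163, a scavenger receptor for haemoglobin, rose from 0.10, -0.34, -0.19 and 0.42 to between 0.95 and 2.57, by 1.46 ± 0.18 (SE, adjusted p = 0.000894). Csf1r, the receptor that keeps macrophages alive, rose from 1.98, 1.78, 1.89 and 2.09 to between 2.19 and 3.21, by 0.82 ± 0.11 (SE). The groups of these 3 genes did not overlap. Lyve1 (1.37), a hyaluronan receptor of resident macrophages and lymphatic endothelium, F13a1 (1.25), Stab1 (0.93), Folr2 (0.76) and Adgre1 (1.02) were the other like genes. A second Lyve1 probe set rose by 1.46, and a second F13a1 probe set by 0.84 with an adjusted p of 0.061. Cd14 (1.00) and Cd68 (0.70) passed without a like change, at 1.51 and 1.08 with the array level as a block. Adgre1 and Cd14 did not pass without control replicate 1, 2 or 3 (adjusted p of up to 0.147 and 0.102), nor Cd68 without 10 of the 16 single arrays, all 4 controls among them (0.145). Fcgr2b, the inhibitory receptor for immunoglobulin G, is on none of the lists and rose by 1.44 ± 0.28 (SE), with replicate 1 at 16 weeks at 2.28 and the other 3 at a mean of 0.59. Its call was lost without control replicate 1 or 2, with an adjusted p of up to 0.052, and that of F13a1 without control replicate 2 (0.0616). The summed level of the macrophage markers ranged from 37.3 to 49.0 in the controls and from 53.2 to 167 after ACF, so these ranges did not overlap. The complement and protease genes above moved with these markers, and how far they share a source was not tested. With the array level as a block 14 of the 16 passed, and without control replicate 2 the count was 6.

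Other cell types moved less. Of 12 measured fibroblast markers 5 passed, all higher (3.17% over all genes), with a median of 0.38. The summed level of the 12 was 251 to 328 in the controls and 291 to 395 after ACF. The 2 like genes among them were Pi16, a protease inhibitor of fibroblasts, which rose by 1.39 ± 0.26 (SE), and Cd248 (0.55). A second Pi16 probe set rose by 0.78 (adjusted p = 0.053), and a second Cd248 probe set differed by -0.14. A block for array level left a count of 1, with Pi16 at 0.91 and an adjusted p of 0.0666. Cd248 stood at 0.34 with that block (adjusted p = 0.302) and lost its call without 11 of the 16 single arrays, control replicates 1 to 3 among them (up to 0.207). The count was also 1 when control replicate 1, 2 or 3 was left out. Of 14 endothelial markers, Vwf alone passed, without a like change. Of 11 markers of smooth muscle cells and pericytes 0 passed by limma, with 2 at an unadjusted p under 0.05 (20.6% over all genes). Of 12 markers of T, B and NK cells Lck was lower (-0.43) and 11 of the 12 were negative, with a summed level of 9.03 to 12.7 in the controls and 7.79 to 10.97 after ACF. Of 9 markers of neutrophils and mast cells 6 were positive with a median of 0.03, and Tpsb2 alone passed, as lower (-0.31), while the related Tpsab1 stood at 0.15. Lck and Tpsb2 each lost their call without any of 12 single arrays, controls 1 to 3 among them (adjusted p of up to 0.212 and 0.172), and with the array level as a block (0.115 and 0.135). The part of cell composition in the matrix results was not tested.

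**Figure D3:**
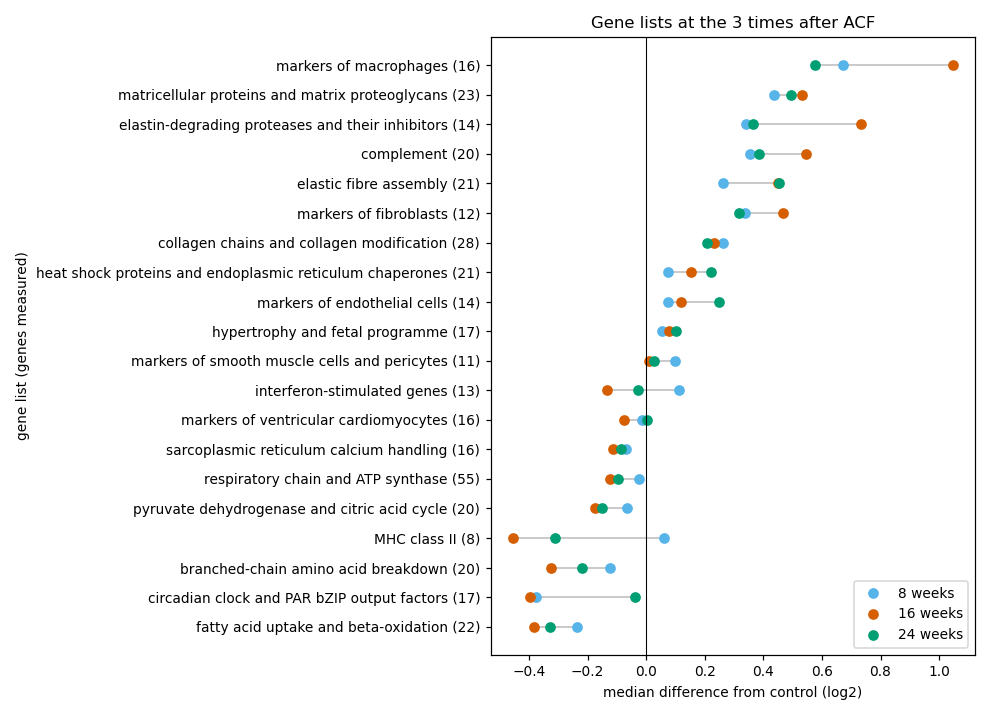
Median difference from control (log2, horizontal axis) of 20 gene lists at 8, 16 and 24 weeks, with the number of genes measured in brackets and a grey line spanning the 3 times. Markers of macrophages lie furthest to the right (0.67, 1.05 and 0.57) and fatty acid uptake and beta-oxidation furthest to the left in the pooled comparison (-0.24, -0.38 and -0.33), while the respiratory chain lies between -0.12 and -0.02.

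Among genes of load and hormone response, Nppa (atrial natriuretic peptide), the classical marker of an overloaded ventricle, had controls at 6.90, 5.82, 4.20 and 5.71 and ACF arrays between 6.05 and 8.32 with a median of 7.66. The groups overlapped, with 10 of 12 ACF arrays above all controls. Nppa rose by 1.84 ± 0.37 (SE, adjusted p = 0.0105) with 1.48, 2.21 and 1.84 at the 3 times. The summed level of the 4 atrial markers ranged from 8.66 to 107 in the controls and from 10.2 to 183 after ACF. Whether atrial tissue took part in the Nppa levels was not tested. Of 17 measured genes of hypertrophy and the fetal programme 3 passed, all higher, against 3.17% of all genes. Beside Nppa they were Ankrd23 (1.25), a stretch-responsive ankyrin-repeat protein of the sarcomere, and Fhl1 (0.56). Rcan1, a target of calcineurin, did not pass (0.73, adjusted p = 0.0525). Grk5, a kinase that desensitises adrenergic receptors, rose from 0.41, 0.54, 0.67 and 0.81 to between 1.05 and 2.69, by 1.25 ± 0.17 (SE, adjusted p = 0.00113), and its groups did not overlap. The alpha-1 receptor genes Adra1b (-0.75) and Adra1d (-0.60) were lower without a like change. Of 13 adrenergic genes measured 1 passed as higher and 2 as lower, against 3.17% and 1.53% of all genes. Of 15 genes of vasoactive peptides and receptors 2 passed, both higher. Adm (adrenomedullin), a vasodilator peptide, rose from 1.81, 1.68, 1.74 and 1.63 to between 1.92 and 2.79, by 0.63 ± 0.13 (SE), and Npr3, the clearance receptor of natriuretic peptides, by 0.45. The apelin receptor gene Aplnr differed by -1.41 (adjusted p = 0.0629) and its ligand gene Apln by -0.72 (adjusted p = 0.0857), so neither passed. Without control replicate 1, 2 or 3 Ankrd23 did not pass (adjusted p of up to 0.124), without replicate 1 or 2 Adra1b did not (up to 0.0508), and without replicate 2 Adm did not (0.058). Fhl1, Adra1d and Npr3 did not pass without several single arrays (6, 13 and 10 of the 16), controls 1 to 3 among them (up to 0.15, 0.224 and 0.123).

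Growth factor systems were read against the 4.7% of all genes that passed, 3.17% as higher and 1.53% as lower. Tgfa, described above with a rise of 2.59, was not on the IGF and EGF list. Igfbp6, a binding protein that prefers insulin-like growth factor 2, was the 1 gene of the 20 on that list to pass. Its controls lay close together at 2.49, 2.59, 2.52 and 2.53 and its ACF arrays between 2.92 and 3.75, and it rose by 0.66 ± 0.11 (SE, adjusted p = 0.00359) with 0.57, 0.68 and 0.72. In the TGF-beta, activin and BMP list 4 of 22 passed, all higher. Fstl1 (0.82) and Bmp6 (0.56) had a like change, and the activin subunit gene Inhbb (1.72) and the activin antagonist Fstl3 (0.98) did not. Other Bmp6 probe sets differed by 0.50, -0.06 and -0.05 (adjusted p = 0.0223, 0.806 and 0.854). Of 8 secreted Wnt antagonists Sfrp1 (0.88, like) and Dkk3 (0.60, not like) were higher. Cdkn1a (0.95), the p21 inhibitor of the cell cycle, was the 1 gene of 24 of its list to pass, with Mki67 and Aurkb among those that did not. Bmp6, Fstl1 and Cdkn1a lost their call without control replicate 1 or 2 (adjusted p of up to 0.0808, 0.0566 and 0.0843), Inhbb without control replicate 2 or 3 (0.0586), Sfrp1 without control replicate 1, 2 or 3 (0.137), Dkk3 without any 1 control (0.108) and Fstl3 without any of 12 single arrays (0.157).

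The falls with the largest difference were smaller in size, from -0.70 to -1.37, and came from unlike functions. Gabrb2, a subunit of the GABA-A receptor, stood at 2.39, 1.99, 1.64 and 1.62 in the controls and between -0.45 and 1.52 after ACF with a median of 0.65. It fell by 1.37 ± 0.28 (SE) to 0.386 times control (adjusted p = 0.0105), and a second probe set, far below the median probe set, differed by -0.13. Rasd2, a small GTPase, fell from 1.54, 1.85, 1.79 and 1.18 to between -0.74 and 1.05, by 1.18 on the log2 scale (adjusted p = 0.00316). A second Rasd2 probe set, with a control mean of 0.95, differed by -0.34 and did not pass (adjusted p = 0.072). Ppp1r1a, inhibitor 1 of protein phosphatase 1, which shields phosphorylated calcium-handling proteins, stood at 1.76, 1.63, 1.11 and 1.01 in the controls and between 0.06 and 0.71 after ACF. It had the most even course of the 14, with -0.95, -1.0 and -0.94 at the 3 times. It fell by 0.96 ± 0.14 (SE) to 0.512 times control (adjusted p = 0.00163), while a second Ppp1r1a probe set differed by -0.30 (adjusted p = 0.064). Car2 (carbonic anhydrase 2) fell from 2.57, 2.54, 2.46 and 2.25 to between 1.39 and 1.97, by 0.74 ± 0.09 (SE, adjusted p = 0.000814), and a second probe set fell by 0.71. Cd1d1, which presents lipid antigens, fell by 0.75, and Angpt1, the ligand of the endothelial receptor Tie2, by 0.84. Pdia2 (-0.91), the lens crystallin gene Crybb1 (-0.87), Emc9 (-0.82), the phosphatase gene Ppm1j (-0.76), Sdr39u1 (-0.76) and Tsc22d4 (-0.70) completed the 14 with Bckdha and Ehhadh. A second Tsc22d4 probe set differed by -0.28 and did not pass (adjusted p = 0.325). Angpt1 did not pass without control replicate 1, 2, 3 or 4 or without replicate 3 at 8 weeks (adjusted p of up to 0.133), Gabrb2 without control replicate 1 or 2 (up to 0.0664), and Tsc22d4 without control replicate 1 (0.0824).

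Fatty acid oxidation was the metabolic list that was lowest. Of 22 measured genes of uptake, carnitine shuttle and mitochondrial beta-oxidation, 21 were negative with a median of -0.33. Over all genes 7130 of 14218 were negative. Of the 22, 4 passed as lower, against 1.53% of all genes, and 0 as higher. Hadha, a subunit of the trifunctional protein of the mitochondrial spiral, stood at 6.05, 5.97, 5.85 and 5.94 in the controls and between 5.17 and 5.71 after ACF with a median of 5.6. The groups did not overlap, and it fell by 0.44 ± 0.10 (SE) to 0.738 times control (adjusted p = 0.0191), with -0.35, -0.53 and -0.44 at the 3 times. Eci1, an isomerase for unsaturated fatty acids, fell from 5.87, 5.86, 6.15 and 6.03 to between 4.87 and 5.75, by 0.59 ± 0.14 (SE). Acadm, the medium-chain dehydrogenase, fell from 7.03, 6.96, 6.97 and 6.99 to between 6.30 and 6.88, by 0.33 ± 0.08 (SE). Hadh, the short-chain dehydrogenase, fell by 0.68 without a like change. Ehhadh, the bifunctional enzyme of peroxisomes and a target of PPAR-alpha, fell from 0.60, 0.29, 0.27 and 0.56 to between -1.02 and 0.21, by 0.78 ± 0.19 (SE, adjusted p = 0.0296), and was the 1 gene of 20 in the PPAR list to pass. These calls were lost when 1 of several controls was left out, while the differences moved little. That of Hadha stayed between -0.47 and -0.40 with any 1 array left out. Without control replicate 1 or without replicate 2, 0 of the 22 passed, with Hadha at -0.41 and an adjusted p of 0.0961, and with the array level as a block 6 did. Ehhadh and Eci1 did not pass without control replicate 1, 2, 3 or 4 (adjusted p of up to 0.13 and 0.101), nor Acadm without these or replicate 3 at 8 weeks (0.134).

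Of 20 genes of branched-chain amino acid breakdown, 19 were negative with a median of -0.25, where 7130 of all 14218 genes were negative. The calls below stand beside the 3.17% of all genes called higher and the 1.53% called lower. Bckdha, a subunit of the branched-chain keto acid dehydrogenase, fell from 4.27, 4.45, 4.34 and 4.30 to between 2.62 and 4.05, by 0.77 ± 0.17 (SE, adjusted p = 0.0185), and the transaminase gene Bcat2 fell by 0.54 without a like change. Without control replicate 1, 2 or 3 neither passed (adjusted p of up to 0.0721 and 0.177), and with the array level as a block Bckdha stood at -1.08 and Bcat2 did not pass (-0.63, adjusted p = 0.0613). Of 22 genes of glucose uptake and glycolysis, Pfkfb1, which makes the activator of phosphofructokinase, fell by 0.67 ± 0.14 (SE) with a like change, and the platelet isoform Pfkp rose by 0.88 without one. Of 20 genes of pyruvate dehydrogenase and the citric acid cycle, Suclg2 (-0.30, like) and Dlst (-0.34) passed as lower, and 18 of the 20 were negative. Pfkfb1 lost its call without control replicate 3 (adjusted p = 0.0586), Pfkp without control replicate 1 or 2 (0.0576), and Suclg2 and Dlst without 9 and 10 of the 16 single arrays (up to 0.179 and 0.158). Of 55 genes of the respiratory chain and ATP synthase, 48 were negative with a median of -0.09. By limma 0 of the 55 passed, with 8 at an unadjusted p under 0.05 (20.6% over all genes).

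Of 20 channel and connexin genes 2 passed, and of 16 genes of sarcoplasmic reticulum calcium handling 2. All of them were lower, and 1.53% of all genes were called lower. The inward rectifier genes Kcnj5 (-0.60) and Kcnj12 (-0.41) fell with a like change, at -0.62, -0.66 and -0.53 for Kcnj5 and -0.37, -0.45 and -0.42 for Kcnj12. S100a1 (-0.48), a calcium sensor that binds the ryanodine receptor, fell with a like change and Hrc (-0.41) without one. Kcnj5 and Kcnj12 did not pass without control replicate 1, 2 or 3 (adjusted p of up to 0.111 and 0.0762), nor S100a1 and Hrc without control replicate 1, 2, 3 or 4 (up to 0.072 and 0.113). With the array level as a block Kcnj5 stood at -0.37 (adjusted p = 0.203). A second Kcnj5 probe set differed by -0.27 and did not pass (adjusted p = 0.152). Of 24 measured antioxidant genes 2 passed as higher and 1 as lower, against 3.17% and 1.53% of all genes. Gpx3 (0.54) was higher and Gstm2 (-0.61) lower with a like change, and Hmox1 (0.80) was higher without one. They lost their calls without control replicate 1 or 2, among other arrays (adjusted p of up to 0.0848, 0.125 and 0.135). By limma 0 of 13 interferon-stimulated genes, 0 of 21 chaperones and 0 of 13 genes of creatine kinase and phosphotransfer passed. An unadjusted p under 0.05 was seen in 1, 5 and 2 of them, against 20.6% of all genes. Of 8 MHC class II genes 6 were negative with a median of -0.23, among them RT1-DMb (-0.56) and Cd74 (-0.35), which did not pass. RT1-DMa alone passed, as higher (0.44, not like), a call lost without any of 9 single arrays (up to 0.13). RT1-Bb lay between 2.53 and 3.29 on the 4 controls, whereas 8 of the 12 ACF arrays lay between -1.08 and 0.04 and the other 4, 2 at 8 weeks and 2 at 24 weeks, between 2.43 and 3.61. It did not pass (-2.36, adjusted p = 0.094), and a second probe set differed by 0.75.

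Of the genes that passed, 272 had no like change by the definition, although 0 genes passed the F test among the times. Dbp, a transcription factor driven by the circadian clock, stood at 3.72, 3.77, 3.29 and 3.597 in the controls and between 0.55 and 3.24 after ACF. Its differences at the 3 times were -1.53, -2.54 and -0.53, and those of Bmal1, a core activator of the clock, were 1.46, 2.06 and 0.50. Of the 17 measured clock genes 4 passed (4.7% over all genes), and 0 had a like change (2.79% over all genes). Bmal1 was higher and Dbp, Tef (-0.64) and Bhlhe41 (-0.87) were lower, against 3.17% and 1.53% of all genes. An unadjusted limma p under 0.05 was seen in 15 of the 17, against 20.6% of all genes. The hour of sampling is not given per array and cannot be told apart from the groups. Vwf (von Willebrand factor) was higher by 0.34, 1.31 and 1.19, and Prxl2a by 0.38, 1.34 and 0.58. Slit3, a guidance ligand, differed by 0.29, 0.80 and 0.57, Rasgef1b by 0.15, 0.87 and 0.76, Sbk1 by -0.10, -0.69 and -0.60, and Nalf1 by 0.02, -0.36 and -0.53. These last 5 with Dbp had the smallest p of the F test among the genes that passed, with an unadjusted p of 8.89e-06 for Prxl2a. The adjusted p of the F test was 0.126 for Prxl2a and 0.153 for the other 5, so a difference among the times was not shown for any of them. Bmal1 lost its call without any 1 of the 4 controls (adjusted p of up to 0.0956), Rasgef1b and Sbk1 without control replicate 1 (0.0505 and 0.0576), Tef without control replicate 1 or 2 (up to 0.0785), and Nalf1 without control replicate 1, 2 or 3 (up to 0.145).

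**Figure D4:**
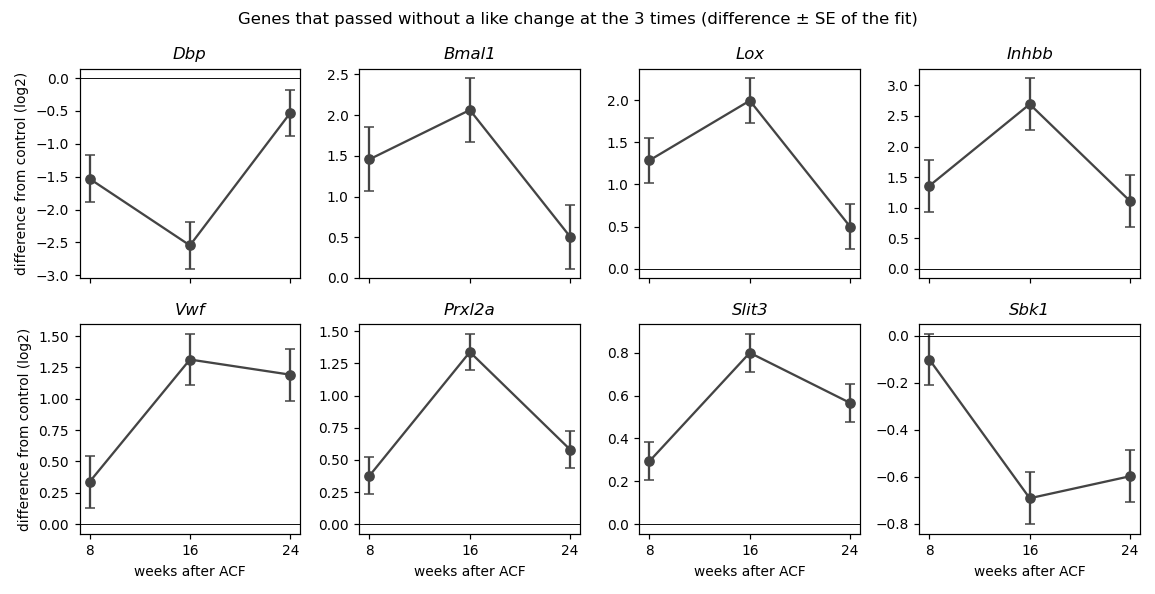
Difference from control (log2, vertical axis) at 8, 16 and 24 weeks for 8 genes that passed without a like change, with bars for the SE of the fit. Dbp, Bmal1 and Lox lie closest to 0 at 24 weeks (-0.53, 0.50 and 0.50), and Vwf, Prxl2a, Slit3 and Sbk1 lie closest to 0 at 8 weeks.

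The 28 genes chosen for separated groups keep their sign on any subset of the arrays by that choice, and only the sizes are described here. A block for array level gave differences from -1.68 for Gabrb2 to 3.66 for Postn, and the 9 higher-level arrays alone, none of them of 24 weeks, gave -1.62 and 3.70 for these genes. Dnah7 was 2.94 and 2.82 under these settings and Colec11 1.57 and 1.70. Of the 28, Tgfa, Ptgs2, Pi16 and Angpt1 did not pass with the block (adjusted p = 0.0532, 0.0804, 0.0666 and 0.0783), nor did the like genes Acadm (0.0837), Bmp6 (0.0892), Cdkn1a (0.123), Gpx3 (0.0764), Gstm2 (0.0519), Npr3 (0.229), S100a1 (0.11) and Suclg2 (0.12), beside Aspn, Ccn3, Cd248, Emilin2, Kcnj5 and Lck above. Of the 116 passing genes put through the alternatives, 26 kept both direction and threshold under every alternative run. They were, among rises, Akip1, C1qa, C1qc, Cd163, Col14a1, Col8a1, Colec11, Csf1r, Ctsk, Ctss, Dnah7, Fbn1, Folr2, Igfbp6, Loxl1, Mfap5, Mrc1 and Stab1, and, among falls, Car2, Cd1d1, Crybb1, Emc9, Pdia2, Ppm1j, Ppp1r1a and Sdr39u1. Across 27 of the fits over all genes, 88 genes passed in every one with the same sign, and 52 of them were like genes that were higher and 23 like genes that were lower.

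**Figure D5:**
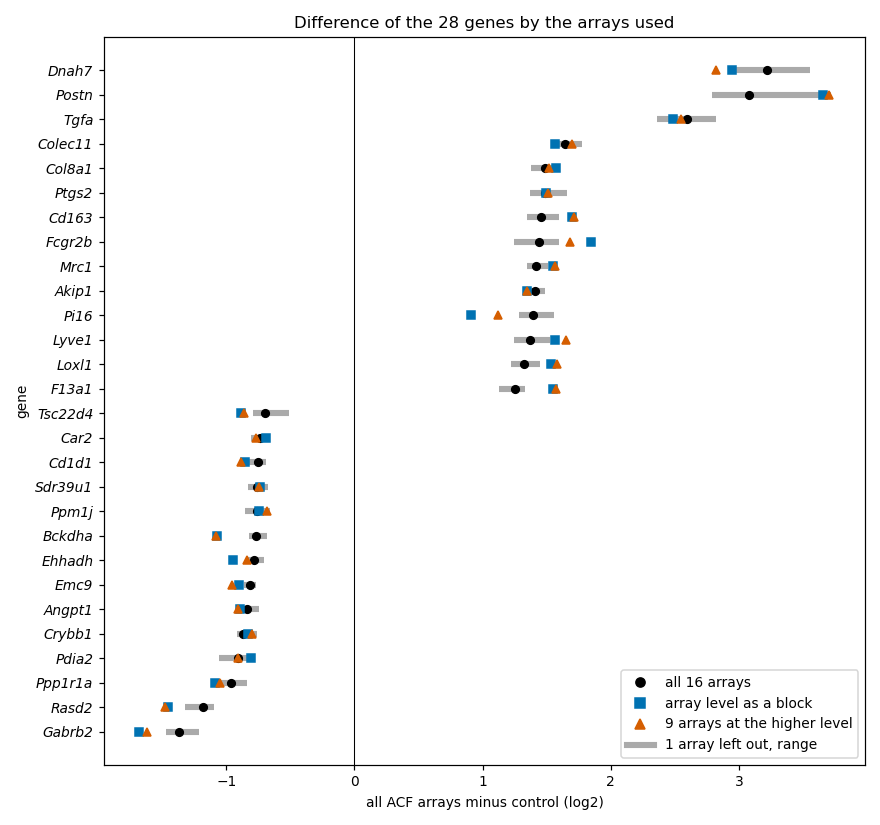
Difference of all ACF arrays from control (log2, horizontal axis) for the 28 genes with all 16 arrays (circles), with the array level as a block (squares), on the 9 arrays at the higher level, none of 24 weeks (triangles) and over the range with 1 array left out (grey bars). The sign is set by the choice of genes, and with the block Pi16 lies at 0.91 in place of 1.39, Postn at 3.66 in place of 3.08 and Bckdha at -1.08 in place of -0.77.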

How the data were processed

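LV RNA of 16 samples was hybridised to an Affymetrix rat 3′ array, 1 array per sample and 4 per group, and the number of arrays limits the precision. The deposited values are log2 intensities from RMA in Affymetrix Expression Console 1.2, per the labels, and run from 2.30 to 14.7. The methods of the study name a different array and RNA kit than the labels, which were followed. Of 31099 probe sets, 57 are manufacturer controls, 20832 carry 1 gene symbol in the platform annotation, 436 several and 9831 are unnamed here. Per gene, the probe set with the highest mean over all arrays was kept, which gave 14218 genes, with no filter on dim probe sets. Values of a gene's other probe sets are given for some genes only. Each array was centred on its median. limma 3.58.1 (R 4.3.3) was fitted with 1 mean per group over all 16 arrays. The contrast was the mean of the 3 times minus control, with Benjamini-Hochberg adjustment over all genes and a threshold of 0.05, and was tested on simulated data. Single genes were also given an exact permutation test (scipy 1.17.1). Named genes were the 14 largest rises and 14 largest falls with a like change and all ACF arrays outside the control range, up to 4 members of each of 39 gene lists by adjusted p, and the genes with the smallest p among times. Further genes were named from the lists after their values were seen and went through the same alternatives. The genes, gene lists and tests were chosen with earlier results of these data known. Alternatives changed centring, normalisation, blocks, variance model, probe set rule and arrays, and included the methods' t-test with a fold change of 1.5 and an unadjusted p of 0.05.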

Additional observations from a re-analysis of the deposited data

Results flagged for a closer look

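In 34 of the 548 groups of 4 arrays formed by 137 named genes (6.2%), 1 array lay further from the others than Dixon's critical value allows, where chance gives about 1 in 20. Each value below is that array minus the mean of the other 3 of its group, on the log2 scale. Of the 11 such controls, 10 were control replicate 4 and each of these was high, by 2.54 for Postn, 0.75 for Col1a1, 0.62 for Vcan, 0.54 for Col14a1, 0.54 for Mfap5, 0.48 for Fstl3, 0.43 for Crybb1, 0.42 for Gpx3, 0.32 for Col3a1 and 0.22 for Dcn. The remaining one was control replicate 3, which was high by 0.44 for Pfkfb1. At 8 weeks, Thbs4 (-1.76), Emilin2 (-0.54), Ctsb (-0.24) and Csf1r (-0.14) were low on replicate 1 and Fstl3 (-0.31) on replicate 4. At 16 weeks, replicate 1 was high for Fcgr2b (1.69), Mrc1 (0.87) and Nalf1 (0.24) and low for Bmp6 (-0.29), replicate 4 was high for Cd1d1 (0.78) and low for Eln (-0.39) and Dbp (-0.16), and replicate 3 was high for RT1-DMb (0.46) and Npr3 (0.28). At 24 weeks, replicate 2 was high for Inhbb (2.23) and low for Hadh (-0.74), Acadm (-0.43) and Sbk1 (-0.29). Replicate 1 at 24 weeks was high for Igfbp6 (0.67) and Suclg2 (0.29), and replicate 4 was high for Pdia2 (0.40) and low for Adgre1 (-0.85) and Fcgr2b (-0.56). Without control replicate 4 the difference of Postn was 3.71, against 3.08 with all arrays.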

How the results depend on the processing

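Of the 137 genes put through the alternatives, the 116 that passed kept their direction under every alternative run on them, a direction that the choice of separated genes fixes in part. Of the 21 that did not pass, 4 with differences near 0 changed sign, Sparc to -0.107 without centring, -0.0231 with cyclic loess, -0.245 with the level block, -0.127 on the 9 higher-level arrays, -0.0148 without the 8-week arrays and to between -0.0441 and 0.0481 over single arrays left out, Fbln5 to -0.0442 without centring, -0.0557 and -0.0265, Fbn2 to 0.105 and 0.0853, and Mmp9 to -0.0344 and -0.0055 with the level block and on the 9 arrays. The 451 genes higher, 217 lower, 253 like and higher, 143 like and lower and 0 among the times became 200, 1036, 95, 533 and 0 without centring. With cyclic loess 374 were lower and 233 like and lower. On the 9 arrays at the higher level, which hold 3 arrays of 8 weeks, 2 of 16 weeks and 0 of 24 weeks, 820 were higher, 390 lower and 236 differed between 8 and 16 weeks. With array weights the 5 counts were 1189, 772, 658, 404 and 1. With the 12 ACF arrays as 1 group 249 were higher and 127 lower. A fold change above 1.5 left 224, 81, 126 and 54. The methods' t-test called 306 higher and 111 lower at its own thresholds, and 51 and 34 after Benjamini-Hochberg adjustment, with 51 and 34 of them like. A smallest difference of at least 0.67 times the largest left 89 and 56 like genes. Leaving out all arrays of 1 time was chosen after seeing the data. Without 8 weeks 452 and 282 were like and 6 differed among the times, without 16 weeks the counts were 121, 54, 114 and 49, and without 24 weeks 2 differed among the times. With 1 array left out, higher calls ranged from 102 to 722, lower from 46 to 327, like higher from 70 to 381, like lower from 38 to 170, and calls among the times from 0 to 3, and the lowest counts of higher and lower calls came without control replicate 1. No sign of pairing by replicate number was seen in correlations of deviations from the group means. Of 24 same-numbered pairs 6 correlated above 0.1 (-0.32 to 0.24), and 3 of 16 arrays correlated best with their own number. These correlations cannot exclude pairing, because the deviations of a group's 4 arrays sum to 0. The replicate block gave 453 higher, 209 lower, 254 and 129 like and 0 among the times. The cause of these shifts was not tested. Of 4210 results of these genes under alternatives, 3487 kept direction and side of the threshold, 643 were no longer past it, 64 newly passed and 16 changed sign. Dim probe sets were not filtered, and without detection calls small differences near background could not be separated from noise.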
